A study of Oryzias latipes with 10 samples.

Results

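To learn which transcripts differ when *yap1b* is lost in addition to *yap1*, the 3 RNA-seq libraries of *yap* double mutants (YAPd) were set against the 3 libraries of *yap* single mutants (YAPs), all from whole medaka embryos at stage 16, the mid-late gastrula. These are 6 of the 10 libraries of the series, and the 4 wild type (WT) libraries served only to show which differences also separate WT embryos from each other. Single mutants carried the *yap1Δ7pb* deletion, and double mutants carried *yap1Δ7pb* and *yap1bΔ136pb*. Loss of *yap1* is therefore common to both mutant groups. The wild type strain that the study lists is iCab. The sources used here do not say whether the WT embryos sequenced were iCab or siblings of the mutants. Whether the single mutants were wild type or heterozygous at *yap1b* is not given in the sources used here. Embryos were homogenized and genotyped one by one and RNA of equal genotype was then merged. A library is therefore a pool of embryos, and its p-values measure only how far pools vary. In such bulk samples fewer cells of a type and less RNA per cell cannot be told apart.

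Yap proteins are co-activators without a DNA-binding domain of their own that act through Tead transcription factors. The kinases of the Hippo pathway phosphorylate them and keep them out of the nucleus, whereas spreading and tension of the cell favour their nuclear entry. In vertebrate cells they raise genes of the cytoskeleton, of adhesion to the extracellular matrix and of the Hippo pathway itself, among them Amotl and Lats genes that in turn restrain Yap. Medaka carries the paralogs *yap1* and *yap1b*.

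Gene counts summed to 22053738 to 37776961 per YAPs library and 29521935 to 30627401 per YAPd library. The table holds 24365 genes, and 16513 of them reached an average count of 10 in the 10 libraries and were tested. A gene is called lower or higher where the adjusted p of edgeR's quasi-likelihood test was under 0.05, and levels are normalized counts, scaled for library size and composition. Across genes, which are not independent replicates, Pearson's r of log2 CPM (counts scaled to a common library total) was 0.956 to 0.985 among YAPs libraries, 0.968 to 0.983 among YAPd libraries and 0.919 to 0.958 between them. WT 4 lay apart from WT 1–3 (r of 0.951 to 0.952, against 0.989 to 0.990 among WT 1–3). It was nearer to YAPd (0.958 to 0.970) than WT 1–3 were (0.911 to 0.946), and WT 1–3 were close to YAPs (0.959 to 0.987). WT 1–3 are therefore taken as one set with YAPs and WT 4 as another with YAPd. No label gives these sets, which were read from expression values. Whether they differ in handling or in the embryos themselves is not given in the sources used here and was not tested. The study's methods list a ComBat step against potential batch effects but name no batches. Every YAPd library is in one set and every YAPs library in the other, so that the loss of *yap1b* and the set cannot be told apart in the comparison of the mutants alone.

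*yap1b* had 846, 887 and 955 normalized counts in the 3 YAPd libraries and 1856, 2296 and 2349.5 in the 3 YAPs libraries. All YAPd values were below all YAPs values, while WT 1–3 (2416, 2269.6 and 2434) and WT 4 (2704) were near the singles or above them. For *yap1b*, YAPd differed from YAPs by −1.27 (adjusted p = 0.0057, SE 0.15) as a log2 fold change, and without YAPd 2 the adjusted p was 0.0501. The transcript thus remained detectable in embryos with the deletion. RefSeq places *yap1b* at 12999434 to 13012139 of chromosome 14 (ASM223467v1). *yap1*, on chromosome 13 (6489854 to 6520557), had 2658, 2993 and 2656 normalized counts in YAPs and 2707, 3148 and 3356 in YAPd, and these values overlapped. Its log2 fold change between the mutants was 0.15 (adjusted p = 0.49, SE 0.14). WT 1–3 had 9358, 9131 and 9028 and WT 4 had 5469.8, so that the WT libraries differed in *yap1* by more than the mutant groups did.

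**Figure D1:**
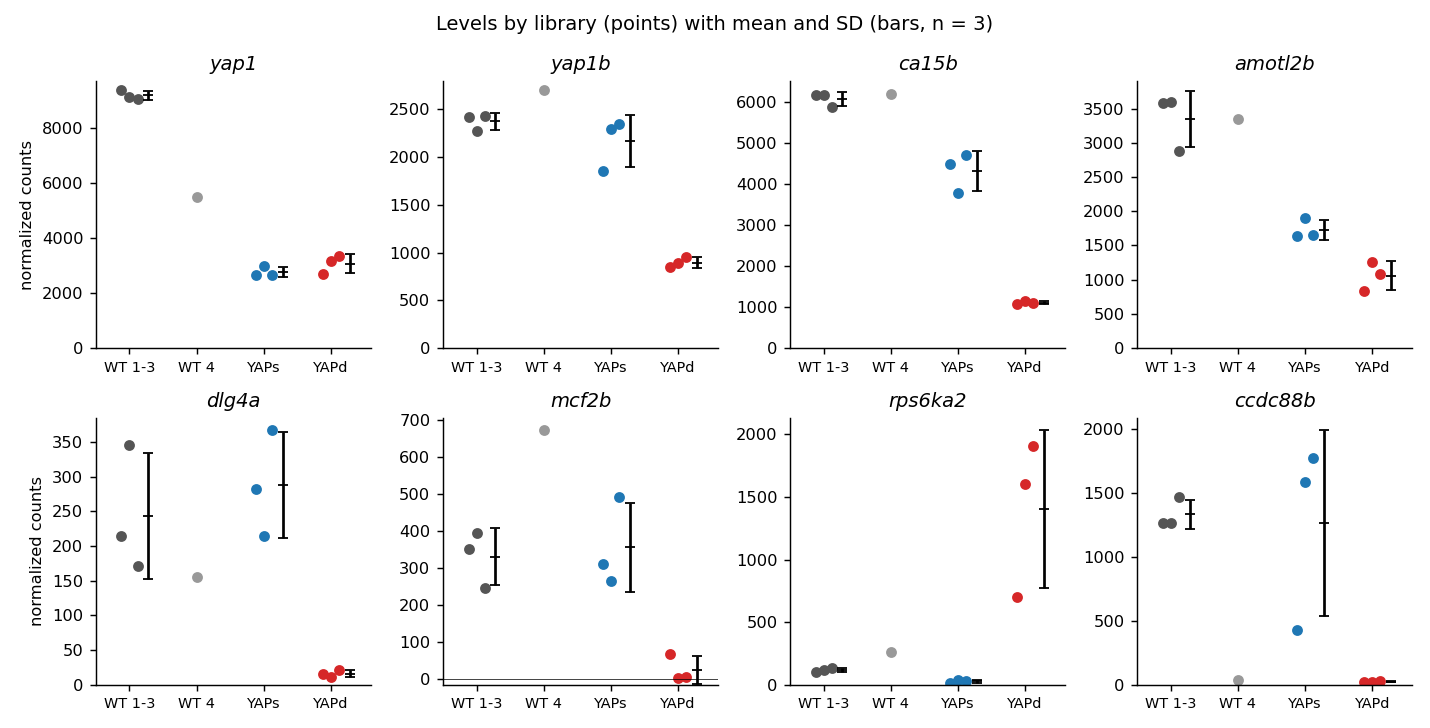
Normalized counts (vertical axes, linear) of 8 genes in the 10 libraries, grouped as WT 1–3, WT 4, YAPs and YAPd, with the mean and SD of each group of 3 as bars. *yap1b*, *ca15b*, *amotl2b*, *dlg4a* and *mcf2b* are lowest in the 3 YAPd libraries and *rps6ka2* is highest there, whereas for *ccdc88b* WT 4 is nearly as low as YAPd.

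The comparison of YAPd with YAPs called 911 genes lower (5.52% of the genes tested) and 719 higher (4.35%), together 9.87%. The libraries of the mutant groups did not overlap for 907 of the lower and 717 of the higher genes, and also for 35.8% of all genes tested. Most of the called genes separated the WT libraries in the same way. For 776 lower and 588 higher genes, WT 4 differed from the mean of WT 1–3 in the same direction and by at least 0.5 times the difference between the mutants on the log2 CPM scale. That is 83.7% of the called genes, against 67.7% of the genes not called. WT 4 lay on the same side for 96.2% of the called genes. The sets were read from the same expression values, so these shares describe that likeness and do not test it. Across all genes tested, the difference of YAPd from YAPs and that of WT 4 from WT 1–3 correlated with a Pearson's r of 0.742, given as a description, since genes of 1 library share its depth and composition. Their median sizes were 0.376 for the mutants and 0.391 for WT on the log2 CPM scale. The WT value sets WT 4 alone against the mean of WT 1–3, so it holds more noise than the difference of the mutant means.

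The remaining genes fall into 2 classes. In 14 genes the WT libraries differed in the opposite direction by at least 0.5 times the difference between the mutants. In 252 genes (1.53% of those tested), 126 lower and 126 higher (0.763% each), the WT libraries were little apart, that is by less than 0.5 times the difference between the mutants. This class is no more frequent among the called genes (15.5%) than among those not called (18.1%). The choice of genes by a small WT difference favours those where YAPd departs from WT, so the following counts are a description. Of the 126 lower genes of this class, 116 had all 3 YAPd libraries below all 7 other libraries, and of the 126 higher genes 113 had all 3 above. Conversely, the 3 YAPs libraries lay beyond all 7 others for 8 of the lower and 9 of the higher genes. A log2 fold change of at least 1 was reached by 85 of the lower and 99 of the higher genes. Symbols were known for 62 of the lower and 18 of the higher genes, since names came from the study's tables and these hold mostly genes that the study called.

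**Figure D2:**
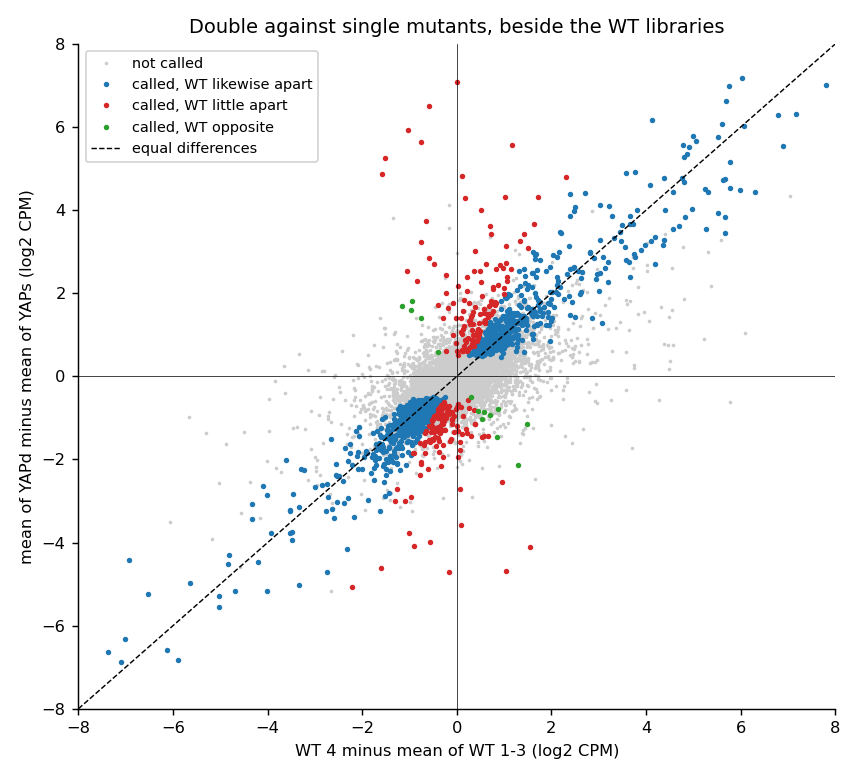
Each point is 1 of the 16513 genes tested, with the difference of WT 4 from the mean of WT 1–3 on the horizontal axis and that of the YAPd mean from the YAPs mean on the vertical axis, both in log2 CPM. The 1364 called genes with the WT libraries likewise apart and the 252 with the WT libraries little apart are marked. These classes are defined by the size of the horizontal difference beside the vertical one, so where they lie is fixed by that choice.

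To set the mutants against the WT libraries of their own set, a net difference was tested in the 10 libraries: the log2 difference of YAPd from WT 4 minus that of YAPs from WT 1–3. It rests on WT 4 as the single WT library of its set. Below, a direct value is the log2 fold change of YAPd against YAPs and a net value this net difference, both from edgeR. With edgeR, 4 genes had a lower net difference (0.0242% of the genes tested) and 1 a higher one (0.00606%). Before adjustment, p was under 0.05 for 536 lower and 225 higher genes (4.61% of those tested). DESeq2 called 97 lower and 44 higher genes. *ca15b* was the gene called by both edgeR tests. It encodes a carbonic anhydrase whose transcript marks primordial germ cells in zebrafish. The level was 4486, 3771 and 4689.9 normalized counts in YAPs and 1070.4, 1151 and 1107 in YAPd, with no overlap. WT 1–3 (6172, 6168 and 5873) and WT 4 (6178) differed little from each other and were above both mutants. The log2 fold change between the mutants was −1.96 (adjusted p = 0.00076, SE 0.14), a call kept whichever mutant library was left out. The net difference was −1.98 (adjusted p = 0.013, SE 0.18), with an adjusted p of 0.0516 to 0.0887 without YAPs 3, YAPd 2 or any of WT 1–3.

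In the other net calls WT 4 stood far from WT 1–3. *mapk10*, a stress-activated kinase of the JNK family best known in neurons, had 749.6 normalized counts in WT 4 and 10.4, 5.34 and 12.7 in WT 1–3. It had 9.97, 22 and 8.21 in YAPs and 27.6, 21.6 and 35.5 in YAPd, so that all mutant libraries were far below WT 4. The net difference was −5.24 (adjusted p = 0.046, SE 0.65), and the direct log2 fold change was 1.05 (adjusted p = 0.16, SE 0.46). Its net call was kept without YAPs 1 and lost without any other mutant library or any of WT 1–3, with an adjusted p of 0.0504 to 0.223. *trarg1a*, related to a regulator of glucose transporter traffic in mammals, had 719.6 in WT 4, 68.2, 67.6 and 86.1 in WT 1–3, 299, 287 and 358 in YAPs and 217, 275 and 153 in YAPd. Here the single mutants were above WT 1–3 and the double mutants below WT 4. The net difference of *trarg1a* was −3.83 (adjusted p = 0.013, SE 0.37), and its call was lost without YAPs 3 or any of WT 1–3 (adjusted p up to 0.0887). The remaining calls, ENSORLG00000014059 with −7.33 and ENSORLG00000014695 with 2.47, have no name in the tables used. WT 4 was at 377 against 8.82, 3.56 and 3.63 in WT 1–3 for the former and 83.4 against 373, 384 and 349 for the latter. *yap1b* itself had a net difference of −1.46 (adjusted p = 0.059, SE 0.19), just outside the threshold, and *yap1* of 0.90 (adjusted p = 0.22, SE 0.19).

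Among genes with at least 50 normalized counts in the higher mutant group, no overlap between the mutants, the WT libraries little apart and a net difference of at least 1 in the same direction, the 10 largest falls with a symbol were those of *bco2a*, *lck*, *dlg4a*, *mcf2b*, *tafa5a*, *jade2*, *gyg2*, *ankrd44*, *ca15b* and *cpne2*. Of these, *ca15b* alone passed the net test. *bco2a*, an oxygenase that cleaves carotenoids, had 111, 147 and 83.8 normalized counts in YAPs and 1.2, 1.13 and 6.26 in YAPd, where it was close to the limit of detection. WT 1–3 had 176, 81 and 189 and WT 4 had 123, so that all 7 other libraries were far above the doubles. The mutants differed in *bco2a* by −5.21 (adjusted p = 0.0053, SE 0.57), a call kept whichever mutant library was left out. *lck*, a Src family kinase best known from T cells, had 58.2, 46.7 and 61.6 in YAPs and 0, 0 and 7.3 in YAPd. WT 1–3 had 53.7, 33.8 and 58 and WT 4 had 141. All YAPd values were thus far below those of the other libraries, although the YAPd counts of the gene sum to only 7. The log2 fold change of *lck* was −4.36 (adjusted p = 0.028, SE 0.86). That call was lost without YAPs 2, YAPs 3, YAPd 1 or YAPd 2 (adjusted p up to 0.109). Without YAPd 3 both remaining doubles were at 0 and the fitted value was −8.70, which is no bound.

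*dlg4a*, the ortholog of the postsynaptic scaffold PSD-95, had 283, 215 and 367 normalized counts in YAPs and 15.6, 11.3 and 21.9 in YAPd. WT 1–3 (214, 345 and 171) and WT 4 (156) were also far above the doubles. *dlg4a* had a direct value of −4.13 (adjusted p = 0.002, SE 0.35), again kept whichever mutant library was left out, and the net difference was −3.48 (adjusted p = 0.12, SE 0.55). *mcf2b*, a member of the Dbl family, had 311, 265 and 492 in YAPs and 68.4, 2.27 and 6.26 in YAPd. One double mutant library was above the others but still below all singles. The log2 fold change of *mcf2b* was −3.81 (adjusted p = 0.046, SE 0.94), and −6.32 without YAPd 1 (adjusted p = 0.0033). This call was lost without YAPs 2, YAPs 3, YAPd 2 or YAPd 3 (adjusted p up to 0.136). WT 1–3 had 353, 394 and 246 and WT 4 had 672, and the net difference was −4.85 (SE 1.15). *jade2*, which encodes a PHD finger subunit of a histone acetyltransferase complex, had 389, 229 and 392 in YAPs and 52.8, 45.4 and 97 in YAPd, with 228 in WT 4. For *jade2* the direct value was −2.36 (adjusted p = 0.017, SE 0.37).

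The other falls of this group were smaller. *tafa5a*, a secreted protein of the TAFA family, had 136 ± 33 normalized counts in YAPs and 23 ± 11.2 in YAPd (SD, n = 3), with a log2 fold change of −2.55 (adjusted p = 0.018, SE 0.41). WT 1–3 varied widely for this gene (15.2, 45.4 and 126) and reached down to the doubles. *gyg2*, a glycogenin that primes glycogen synthesis, had 193 ± 44.5 in YAPs and 45.4 ± 25.9 in YAPd (log2 fold change −2.08, adjusted p = 0.039, SE 0.48). *ankrd44*, an ankyrin repeat subunit of protein phosphatase 6, had 415 ± 76.9 in YAPs and 101 ± 47.1 in YAPd (log2 fold change −2.03, adjusted p = 0.022, SE 0.36). For *cpne2*, a calcium-dependent membrane binding copine, the levels were 107 ± 33 and 27.4 ± 2.49 (log2 fold change −1.95, adjusted p = 0.018, SE 0.31). For *jade2*, *gyg2*, *ankrd44* and *cpne2* WT 4 also lay below WT 1–3, by 0.60 to 0.78 on the log2 CPM scale.

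The rule takes genes with a symbol, known for 18 of the 126 higher genes of the class and 62 of the 126 lower. With that limit 4 rises met it, and none of them passed the net test. *rps6ka2*, a ribosomal S6 kinase downstream of ERK, had 13.3, 37.9 and 30.4 normalized counts in YAPs and 698, 1603 and 1906 in YAPd. WT 1–3 (102, 116 and 131) and WT 4 (264) lay between the mutants, so that the singles were below WT 1–3 and the doubles above WT 4. The mutants differed in *rps6ka2* by 5.61 (adjusted p = 0.0022, SE 0.50), kept whichever mutant library was left out, and its net difference was 4.42 (adjusted p = 0.12, SE 0.73). *pcloa*, a scaffold of presynaptic active zones, had 91.4, 45.8 and 74.8 in YAPs and 106, 839 and 598 in YAPd, so that 1 double mutant library was at the level of WT (97.9 in WT 4). The log2 fold change of *pcloa* was 2.88 (adjusted p = 0.043, SE 0.69). *mecr*, a reductase of mitochondrial fatty acid synthesis, had 213 ± 57.6 in YAPs and 536 ± 103 in YAPd (SD, n = 3), with 171 in WT 4 and a log2 fold change of 1.34 (adjusted p = 0.025, SE 0.25). *c1ql4a*, a secreted protein of the C1q family, had 105 ± 37.6 in YAPs and 314 ± 29.2 in YAPd (log2 fold change 1.59, adjusted p = 0.025, SE 0.30). Its YAPd level was close to that of WT 4 (311), while the singles lay below WT 1–3. Among genes without a name, ENSORLG00000012918, chosen after its values were seen, had 378, 762 and 664 in YAPd and 22.3 to 36.1 in the other 7 libraries, with a direct value of 4.42 (adjusted p = 0.0011, SE 0.34) and a net value of 4.26 (adjusted p = 0.062, SE 0.60).

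**Figure D3:**
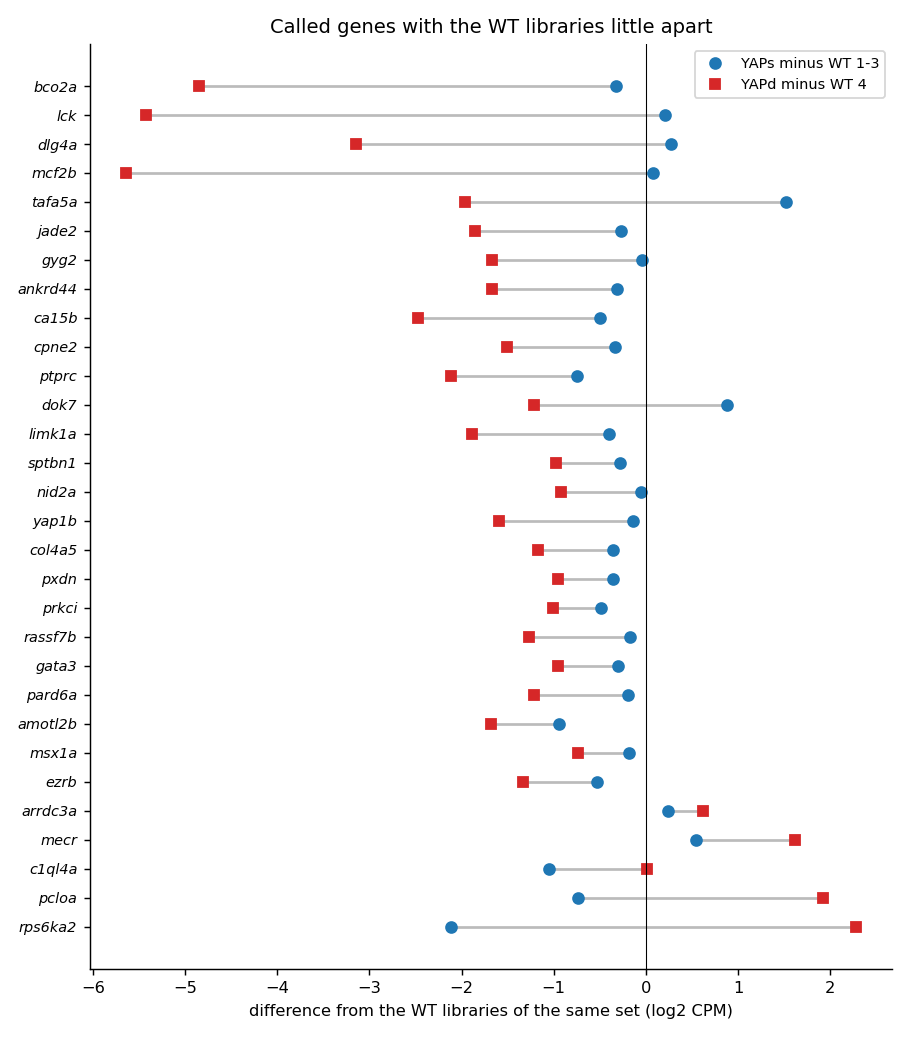
For the 30 named genes that were called with the WT libraries little apart, circles give the difference of the YAPs mean from WT 1–3 and squares that of the YAPd mean from WT 4, both in log2 CPM on the horizontal axis. In 25 genes the square lies left of the circle and in 5 (*arrdc3a*, *mecr*, *c1ql4a*, *pcloa*, *rps6ka2*) right of it. The side is fixed by the choice of genes, since with the WT libraries little apart it follows the direction of the call. Symbols were known for 62 lower and 18 higher genes of this class, so the split of 25 and 5 depends on the naming.

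Several of these genes lie on the chromosome of *yap1b*. A RefSeq position was found for 1713 of the genes tested on the 24 chromosomes, through NCBI gene numbers or symbols in the study's tables. On chromosome 14, 7 of the 67 genes with a position (10.4%) were called with the WT libraries little apart, against 75 of 1713 (4.38%) on all chromosomes. The 7 include *yap1b* itself, the gene deleted in the doubles. The shares on the other chromosomes ran from 1.02% on chromosome 7 to 9.09% on chromosome 2, the latter being 3 of 33 genes. Apart from *yap1b*, 6 of the 50 genes within 10 Mb of it were in this class and none of the 16 farther away. Around *yap1*, which is mutated in both groups, none of the 50 genes within 10 Mb on chromosome 13 were. Chromosome 13 as a whole held 3 of 98 (3.06%), all lower. *limk1a* (16694729 to 16725915) is one of them and lies beyond that window, so the 0 depends on the window chosen. The split around *yap1b* depends on it as well. Of those 6 genes *dlg4a* starts 1.33 Mb after *yap1b*, and the others start at −9.20 to −5.03 Mb. Of 26 positioned genes of this class with a fall and a net difference of at least 1, 6 were on chromosome 14, *yap1b* again among them. No test was made of these counts, which cover only genes with a known position.

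*dlg4a* (14330340 to 14420042) starts 1.33 Mb after *yap1b*, while *mcf2b* (7970234 to 7990513) and *jade2* (3797650 to 4012611) start before it, at −5.03 and −9.20 Mb. The others were chosen after their values were seen. ENSORLG00000001741 (7758029 to 7774005) had 279, 175 and 197 normalized counts in YAPs and 21.6 to 49.2 in YAPd, a direct value of −2.73 (adjusted p = 0.012, SE 0.37). WT 1–3 had 229, 265 and 243 and WT 4 had 256, so that all 7 other libraries were well above the doubles. *GRXCR2* (7227151 to 7235288), known from the hair cell bundles of the inner ear, was at 0 counts in all 3 YAPd libraries. It had 13.3, 24.7 and 31.2 normalized counts in YAPs and 21.4 to 25.4 in the 4 WT libraries. Set against a floor of 3 counts over the group, the mean of YAPs gives a level at least 20.5-fold lower in YAPd. The last gene of the class on this chromosome, without a symbol, rose. The part of alleles linked to the deletion in these differences was not tested.

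**Figure D4:**
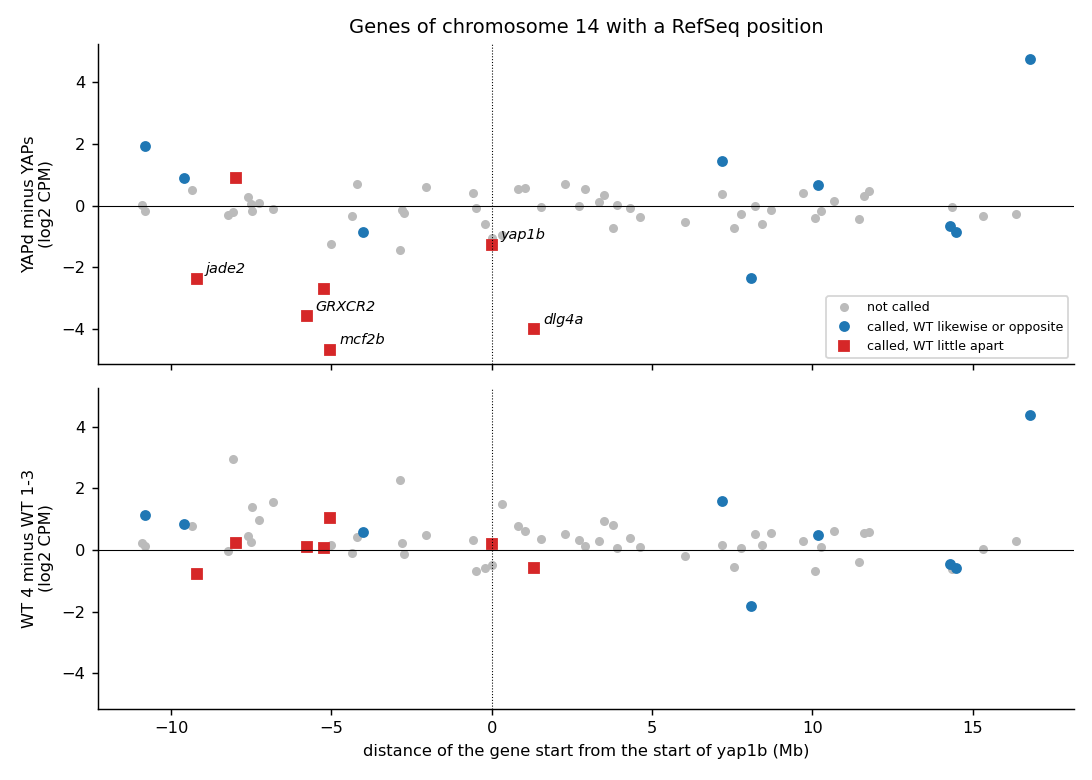
The 67 genes of chromosome 14 with a RefSeq position are plotted by the distance of their start from that of *yap1b* (horizontal axis, Mb), with the difference of YAPd from YAPs above and that of WT 4 from WT 1–3 below (log2 CPM). The 7 called genes with the WT libraries little apart (squares), *yap1b* itself among them, lie within 10 Mb of its start, and 6 are lower in YAPd.

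The largest called differences with the WT libraries likewise apart are given next. By the definition of this class WT 4 lies on the side of the doubles. That choice also favours a small net difference, so the values here and in the rises below are a description. The 4 largest falls by the rule for names were those of *ccdc88b*, *chrna4b*, *ackr4a* and *atp2a3*. *ccdc88b*, a coiled-coil protein of the Girdin family, had 430.4, 1584 and 1774 normalized counts in YAPs, 20.4, 23.8 and 33.4 in YAPd, 1264, 1268 and 1466 in WT 1–3 and 38.9 in WT 4. *ccdc88b* had a direct value of −5.60 (adjusted p = 0.0045, SE 0.59) and its net difference −0.51 (adjusted p = 1, SE 0.88). *chrna4b*, a nicotinic acetylcholine receptor subunit, had a direct value of −4.77 (adjusted p = 0.00058, SE 0.28) and a net value of 0.48 (adjusted p = 1, SE 0.53). *ackr4a*, a scavenging chemokine receptor, had −3.06 (adjusted p = 0.012, SE 0.42) and −1.12 (adjusted p = 1, SE 0.55). The calcium pump gene *atp2a3*, also on chromosome 14, had −2.43 (adjusted p = 0.018, SE 0.38) and −0.60 (adjusted p = 1, SE 0.56).

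The 4 largest rises of this kind were those of *f8* and *f5*, coagulation factors, *pip5k1ba*, a lipid kinase that makes PI(4,5)P2, and *AQP4*, a water channel. *pip5k1ba* had 23.3, 41.4 and 38.6 normalized counts in YAPs and 1026, 741 and 1063 in YAPd. WT 4, at 746, was within the range of the doubles, and WT 1–3 had 16.8, 9.79 and 13.6. The direct log2 fold change of *pip5k1ba* was 4.73 (adjusted p = 0.00058, SE 0.28) and its net difference −1.05 (adjusted p = 0.96, SE 0.42). *f8* had 0, 0.881 and 2.46 in YAPs and 137, 161 and 2.09 in YAPd, so that YAPd 3 was at the level of the singles although the gene was called (6.10, adjusted p = 0.044, SE 1.48). The net differences of *f8*, *AQP4* and *f5* were 0.27, −0.17 and −1.85 (adjusted p = 1 each).

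Calls between the mutants rested on few libraries. Without YAPs 1, the shallowest library, 1708 genes were lower and 1583 higher. Without YAPs 2 there were 136 and 160, without YAPs 3 58 and 66, without YAPd 1 114 and 209, without YAPd 2 36 and 90, and without YAPd 3 908 and 637. Of the 39 named genes that were called, 7 kept the call whichever mutant library was left out: *ca15b*, *bco2a*, *dlg4a*, *rps6ka2*, *ccdc88b*, *chrna4b* and *pip5k1ba*. The call was lost by 25 of them without YAPs 2, 31 without YAPs 3, 24 without YAPd 1, 32 without YAPd 2, 8 without YAPd 3 and 0 without YAPs 1. No sign changed.

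The Tead and Vgll genes are the DNA-binding partners of Yap and their competitors for Tead. Of the 8 genes tested among *yap1*, *yap1b*, Tead and Vgll genes, *yap1b* and *tead1a* were lower in YAPd (25%, against 11.7% of genes with a symbol). None were higher. *tead1a* had 4773, 5646 and 4929.7 normalized counts in YAPs and 2965, 3412 and 3819 in YAPd, but WT 4 (4246) was also below WT 1–3 (6469, 6321 and 5867). For *tead1a* the direct value was −0.59 (adjusted p = 0.047, SE 0.15) and its net difference −0.04 (adjusted p = 1, SE 0.21). *tead1b* had 729.6, 965 and 814 in YAPs and 433, 629.6 and 599.9 in YAPd, without overlap, and all WT libraries (1247 to 1600.4) were above both mutants. It did not pass either test (direct −0.59, adjusted p = 0.088, SE 0.20, and net −0.86, adjusted p = 0.66, SE 0.28). *tead4* was at 584 ± 40.4 in YAPs and 553 ± 156 in YAPd (SD, n = 3), a direct value of −0.08 (adjusted p = 0.84, SE 0.23). Both mutants were below WT 1–3 (1186 ± 127) and WT 4 (1498) for *tead4*. *tead3b*, *vgll4l* and *vgll3* did not pass either test, with direct log2 fold changes of 0.31, −0.15 and 0.99.

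Among 24 Hippo kinases and upstream regulators, 3 were called lower and 0 higher (12.5%). *amotl2b*, an angiomotin-like scaffold that binds Yap and is a Yap target in other vertebrates, had 1642, 1899.6 and 1648 normalized counts in YAPs and 834, 1255 and 1085 in YAPd. WT 1–3 had 3576, 3593 and 2879 and WT 4 had 3348, so that the level stepped down from WT to the singles and again to the doubles. The mutants differed in *amotl2b* by −0.71 (adjusted p = 0.047, SE 0.18), lost when any library but YAPs 1 was left out, and its net difference was −0.71 (adjusted p = 0.94, SE 0.27). *rassf7b*, of the Ras association domain family, had 914, 632 and 663 in YAPs and 409, 340.3 and 375 in YAPd, and 769 to 902 in WT. The doubles were thus below all other libraries, with a direct value of −0.97 (adjusted p = 0.028, SE 0.19) and a net value of −1.10 (adjusted p = 0.3, SE 0.27). The third gene, *wtip*, a LIM domain protein, had the WT libraries likewise apart. The median over the 24 genes was −0.57 for YAPd minus YAPs and −0.24 for WT 4 minus WT 1–3 on the log2 CPM scale. For comparison, the medians were 0.02 and 0.06 over all genes tested and −0.07 and 0.27 over the 2124 genes with a symbol, of which 156 were called lower and 93 higher (11.7%). Since names came from the study's tables, the named genes are the nearer reference for every list. A list covers only its members with such a name and enough counts, for example 13 of 31 integrin subunits.

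Of 20 targets of Yap and Tead known from vertebrate cells, *amotl2b* and *lamc1* were called lower and none higher. That is 10%, near the 11.7% of genes with a symbol. The medians were −0.36 between the mutants and −0.01 between the WT sets. A pair of genes of this list, chosen after their values were seen, were low in both mutants and did not pass the test between them. *ccn1*, a secreted matricellular protein, had 228, 158 and 154 normalized counts in YAPs and 138, 151 and 156 in YAPd, against 963, 868 and 656 in WT 1–3 and 906 in WT 4. The direct value of *ccn1* was −0.27 (adjusted p = 0.46, SE 0.24). *akap12b*, a kinase anchoring protein, had 11692 ± 1935 in YAPs and 10857 ± 2926 in YAPd (SD, n = 3) against 30857 ± 2163 in WT 1–3, with a direct value of −0.11 (adjusted p = 0.78, SE 0.23). A p that misses the threshold does not show that the levels are equal.

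Genes of the basement membrane and matrix included 8 called lower and 0 higher of 49 tested (16.3%, against 11.7% of genes with a symbol). Their medians were −0.54 between the mutants and −0.11 between the WT sets. In 5 of the 8 the WT libraries were likewise apart, and *pxdn*, *nid2a* and *col4a5* had them little apart. *pxdn*, a peroxidase that crosslinks collagen IV, had 3129.5, 4139 and 3023 normalized counts in YAPs and 1346, 1457 and 1679.8 in YAPd. WT 4 (2894) was below the singles as well. On the log2 CPM scale the WT difference of *pxdn* was −0.59 beside −1.19 between the mutants, close to the limit of the class. *pxdn* had a direct value of −1.20 (adjusted p = 0.014, SE 0.17) and its net difference −0.61 (adjusted p = 0.97, SE 0.25). *nid2a*, a nidogen that links laminin to collagen IV, had 8536 ± 2803 in YAPs and 3451 ± 627 in YAPd (SD, n = 3), with a direct value of −1.31 (adjusted p = 0.026, SE 0.25). *col4a5*, a collagen IV chain, had 1520.5 ± 506 and 654 ± 201, with a direct value of −1.22 (adjusted p = 0.049, SE 0.31). None of the 8 passed the net test. *fn1*, fibronectin, named after its values were seen, was lower in YAPd (−1.66, adjusted p = 0.026, SE 0.32), while its net difference was 0.01 (adjusted p = 1, SE 0.48).

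Of 31 integrin subunits listed, the matrix receptors of the cell, 13 were tested. Of these 13, edgeR called 0 in either direction (4 at an unadjusted p under 0.05, and 4 lower with DESeq2). Their medians were −0.28 between the mutants and 0.14 between the WT sets. Of 30 focal adhesion adaptors and kinases 3 were called lower (10%, near the 11.7% of genes with a symbol), all with the WT libraries likewise apart. Among 75 genes of actin and myosin 7 were lower and 1 was higher, also near that share (10.7%). *limk1a*, the LIM kinase that phosphorylates cofilin, had 387, 422 and 479 normalized counts in YAPs and 121, 171 and 208 in YAPd. WT 1–3 (605, 535 and 555) and WT 4 (609) were above all mutant libraries. For *limk1a* the direct value was −1.36 (adjusted p = 0.021, SE 0.24) and its net difference −1.47 (adjusted p = 0.22, SE 0.32). *ezrb*, an ezrin that links actin to the membrane, had 2616, 2468 and 2671 in YAPs and 1624, 1828 and 1785 in YAPd, with 4389.8 in WT 4. The direct value of *ezrb* was −0.57 (adjusted p = 0.034, SE 0.12) and its net value −0.80 (adjusted p = 0.21, SE 0.17). *sptbn1*, a spectrin of the membrane skeleton, fell with −1.36 (adjusted p = 0.048, SE 0.34). Its WT libraries differed by −0.67 beside −1.36 between the mutants on the log2 CPM scale, close to the limit of the class. In *coro6*, a coronin named after its values were seen, YAPd was below YAPs (−0.85, adjusted p = 0.018, SE 0.14) while WT 4 was above WT 1–3, with a net difference of −1.42 (adjusted p = 0.059, SE 0.19).

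In the list of epithelial junctions and the enveloping layer, 2 of 32 genes were lower and 1 was higher (9.38%). *pard6a* and *prkci* encode partners in the Par complex that sets apical polarity. *pard6a* had 976, 755 and 757 normalized counts in YAPs and 458, 498 and 501 in YAPd, and 1128 in WT 4, the highest of the 10 libraries. The mutants differed in *pard6a* by −0.77 (adjusted p = 0.031, SE 0.16) and its net difference −1.03 (adjusted p = 0.2, SE 0.21). *prkci* had 1596 ± 243 in YAPs and 791 ± 209 in YAPd (SD, n = 3), with a direct value of −1.01 (adjusted p = 0.036, SE 0.22). For *prkci* WT 4 (1558) was also below WT 1–3 (2226 ± 86.2). On the log2 CPM scale this was −0.51 beside −1.04 between the mutants, close to the limit of the class. Its net difference was −0.50 (SE 0.32) and did not pass the test. Among 14 genes of the non-neural ectoderm 3 were lower and 0 higher (21.4%, against 11.7% of genes with a symbol). Their medians were −0.23 between the mutants and 0.01 between the WT sets. *gata3*, a zinc finger factor of the early epidermis, had 1349.5, 2131 and 1426 in YAPs and 840, 808 and 999.5 in YAPd, and all WT libraries were above the doubles (1705 to 2006). The direct value of *gata3* was −0.89 (adjusted p = 0.04, SE 0.21) and the net value −0.68 (adjusted p = 1, SE 0.29). *msx1a*, a homeobox gene of the neural plate border, fell with −0.70 (adjusted p = 0.03, SE 0.15), and its net difference was −0.54 (adjusted p = 1, SE 0.22).

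Genes of the other germ layers separated the WT libraries wherever they were called. Of 25 genes of the mesoderm and organizer 5 were lower and 0 higher in YAPd (20%, against 11.7% of genes with a symbol). In all 5 WT 4 was likewise below WT 1–3. Of 18 neural plate genes 1 was lower (5.56%), again with WT likewise apart, and of 10 endoderm genes 1 was higher (10%), also likewise. BMP and TGF-beta genes gave 0 calls among 24 with edgeR (5 at an unadjusted p under 0.05, and 3 lower with DESeq2). Wnt and planar cell polarity genes gave 4 lower and 0 higher among 22 (18.2%, against the same 11.7%), all with WT likewise apart. As a check of the tissue, all 48 cell type markers were present, and 8 of them were called, beside 11.7% of all genes with a symbol. The summed normalized counts of the 13 markers of enveloping layer and epidermis were 117470 to 129290 in WT 1–3, 179520 in WT 4, 97070 to 104160 in YAPs and 79565 to 99581 in YAPd. For the 10 mesoderm markers they were 17943 to 20531 in WT 1–3, 20116 in WT 4, 19696 to 26756 in YAPs and 19415 to 28708 in YAPd. The mutants overlapped in both sums. The 7 neural plate markers summed to 9083 to 10210 in WT 1–3, 10607 in WT 4, 10323 to 11195 in YAPs and 11288 to 12749 in YAPd, with YAPd above YAPs. The 6 endoderm markers summed to 11011 to 12163 in WT 1–3, 9362 in WT 4, 10366 to 10891 in YAPs and 8428 to 9646 in YAPd, and the 3 markers of notochord and organizer to 6481 to 7068 in WT 1–3, 4681 in WT 4, 6624 to 8426 in YAPs and 4959 to 5696 in YAPd. In the last pair of sums YAPd was below YAPs without overlap, and WT 4 was below WT 1–3.

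The 3 germ cell markers *ca15b*, *ddx4* and *tdrd12* summed to 8502 to 8822 in WT 1–3, 8112 in WT 4, 5342 to 6916 in YAPs and 2735 to 3049.7 in YAPd, and the ranges of the mutants did not overlap. Most of that difference is *ca15b*. *ddx4*, the vasa helicase of germ cells, had 1856, 1139 and 1686 normalized counts in YAPs and 936, 969.9 and 1273 in YAPd, with 1576 in WT 4. *ddx4* had a direct value of −0.56 (adjusted p = 0.13, SE 0.22) and did not pass the test. *tdrd12*, a Tudor domain protein of germ granules, was instead at 573, 432 and 474 in YAPs and 728, 650 and 669.8 in YAPd (0.47, adjusted p = 0.098, SE 0.16). The fall of *ca15b* was thus not shared by *tdrd12*. The 6 blood, immune and yolk markers summed to 1306 to 2242 in WT 1–3, 1469 in WT 4, 759.5 to 1143 in YAPs and 590.4 to 786 in YAPd, so that the mutants overlapped, and none of them was at 0 in every library. *ptprc*, the CD45 phosphatase of blood cells, had 51.5, 156 and 94.5 in YAPs and 34.8, 32.9 and 26.1 in YAPd (direct −1.70, adjusted p = 0.047, SE 0.42). In the wider list of 6 germ cell genes *ca15b* was the gene called (16.7%). Of 20 blood, immune and vessel genes 3 were lower and 0 higher (15%). Among all genes with a symbol 11.7% were called. The part of cell type shares in these differences was not tested.

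**Figure D5:**
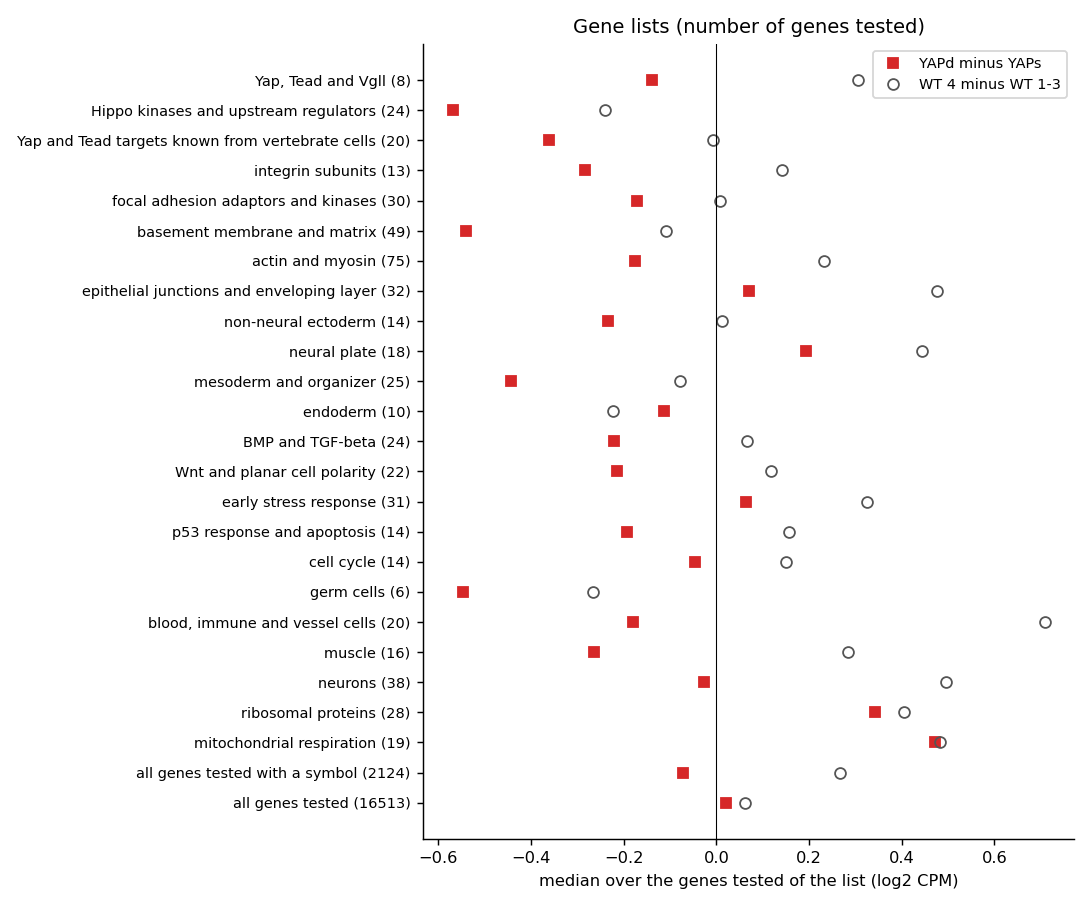
For each gene list (number of genes tested in brackets), squares give the median over its genes of YAPd minus YAPs and open circles that of WT 4 minus WT 1–3, in log2 CPM. The square lies left of the circle in 22 of 23 lists, endoderm being the exception, and also for all genes with a symbol (−0.07 against 0.27).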

How the data were processed

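The deposited values were raw counts of reads per gene and library. Per the labels and the study's methods, the authors trimmed reads with Trimmomatic, removed ribosomal reads, mapped to ASM223467v1 with HISAT2, kept high mapping quality with SAMtools and counted with HTSeq on an Ensembl annotation. For its own comparisons the study lists a ComBat step against potential batch effects ahead of DESeq2. The use of strand is not given in the sources used here. Reads in no gene were 10.6% to 11.3% and ambiguous reads 7.94% to 9.86% of those counted, and both were left out.

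The filter kept genes whose counts averaged 10 or more in the 10 libraries, and edgeR 4.0.16 (R 4.3.3) was used. TMM factors came from the 10 libraries. YAPd and YAPs were compared in their 6 libraries (4 residual degrees of freedom) by quasi-likelihood, and p-values were adjusted (Benjamini-Hochberg) across every tested gene. The net difference was fitted in the 10 libraries with 4 cell means (6 residual degrees of freedom), where WT 4 alone stands for its cell. Log2 CPM used a prior count of 2. Alternatives used DESeq2 1.42.0 and ComBat-seq of sva 3.50.0, other normalizations and filters, a replicate block and leaving out each library.

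Symbols came from the study's tables (2208 genes) and positions from RefSeq, 1326 by NCBI gene number and 423 by symbol. Where both could be compared, 497 of 517 agreed. The members, the gene lists and the rules were chosen with earlier results of these data known. Named were *yap1*, *yap1b*, Tead and Vgll genes, symbol genes called by the net test, the largest called differences with the WT libraries little (up to 10 each way) or likewise apart (4 each way), where the higher group averaged 50 normalized counts or more, and up to 3 genes of each list with the smallest p and WT little apart. Others are marked as chosen after seeing values, except cell type markers.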

Additional observations from a re-analysis of the deposited data

Results flagged for a closer look

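In 12 of the 47 named genes 1 WT library lay far from the other 3 by Dixon's criterion for 4 values, which chance alone meets in about 1 group in 20, and in 11 of the 12 this library was WT 4. Of these 11 genes 8 were named by rules that use the difference of WT 4 from WT 1–3 (the net test or WT likewise apart), so that the number is no measure against chance. WT 4 was high in *mapk10* (750 normalized counts, mean of the others 9.49), *trarg1a* (720 against 74.0), *pip5k1ba* (746 against 13.4), *f5* (571 against 9.20), *f8* (336 against 5.81), *AQP4* (157 against 5.91) and *tead3b* (3670 against 2310). It was low in *yap1* (5470 against 9170), *ccdc88b* (38.9 against 1330), *ackr4a* (37.8 against 145) and *gata3* (1700 against 1980). In *ca15b* the library apart was WT 3 (5870 against 6170), a gap that is small beside the level of the mutants. The cause was not tested.

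The edgeR test of the net difference, which rests on WT 4 alone for the doubles, called *ca15b* (−1.98), *mapk10* (−5.24), *trarg1a* (−3.83), ENSORLG00000014059 (−7.33) and ENSORLG00000014695 (2.47), on the log2 scale. In all but *ca15b* WT 4 stood far from WT 1–3. For those genes the direct edgeR test did not call YAPd apart from YAPs (adjusted p of 0.16 to 0.26).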

How the results depend on the processing

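Against 911 lower and 719 higher genes, DESeq2 called 1882 and 1515 (910 and 717 of them shared), a fit of the same contrast in the 10 libraries 2183 and 1897, and an added limit of 1 on the absolute log2 fold change left 451 and 408. Other normalizations and filters gave 666 to 998 and 519 to 730. Without 1 mutant library the counts were 36 to 1708 lower and 66 to 1583 higher, the most without YAPs 1. For the net difference, against 4 lower and 1 higher genes, DESeq2 called 97 and 44, ComBat-seq adjusted counts gave 66 and 71, and library size scaling 5 and 0. Without 1 library there were 0 to 8 lower and 0 to 7 higher. Leaving out WT 4 gives no value. *yap1b* passed the net test with DESeq2 (adjusted p = 1.2e-07), with ComBat-seq (0.012) and without YAPs 1 (0.014), and *yap1* with DESeq2 (0.00087) and ComBat-seq (0.035).

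Genes with the WT libraries little apart numbered 126 lower and 126 higher. With the limit at 0.25 times the difference between the mutants they were 42 and 57, and at 0.75 times 282 and 259. Without 1 library they were 7 to 314 lower and 17 to 280 higher, and those with WT likewise apart 29 to 1377 lower and 48 to 1294 higher.

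With the replicate number as a block, 2435 genes were lower and 2162 higher between the mutants, and 0 lower and 0 higher in the net difference, where *ca15b*, *mapk10* and *trarg1a* each had an adjusted p of 0.085. The numbers are not shown to pair the libraries: residuals of YAPs and YAPd libraries of equal number correlated across genes with an r of 0.0189 to 0.490, those of unequal number with −0.414 to 0.355, and 3 of the 6 libraries correlated best with their own number.

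Of 413 differences of named genes between the mutants under the other alternatives 396 stayed on their side of the threshold, 14 lost it (12 of them with library size scaling) and 3 gained it, and none reversed. Those gained were all of *tead1b*. The causes were not tested. With 3 pools a side, differences under about the spread between pools are not detectable, and the net difference has 1 WT library for the doubles.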

Other observations

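Of 31 early stress genes 3 were lower and 1 was higher in YAPd (12.9%). *arrdc3a*, an arrestin domain protein, was the higher one, with 2184, 2475 and 2602 normalized counts in YAPs, 4319, 3800.2 and 4000.2 in YAPd and 1770.3 to 2619 in WT (edgeR, log2 difference 0.74, adjusted p = 0.023, SE 0.13). All YAPd values were above those of the other 7 libraries. Of 14 cell cycle genes tested (43 listed) 3 were lower and 1 was higher (28.6%, against 11.7% of genes with a symbol). Of 14 genes of the p53 response and apoptosis 1 was lower (7.14%). Apart from that of *arrdc3a*, where the WT libraries were little apart, all of these calls had them likewise apart. Of 82 ribosomal proteins listed 28 were tested. These gave 0 calls with edgeR (DESeq2 also 0, and 3 before adjustment at p under 0.05), with medians of 0.34 between the mutants and 0.40 between the WT sets. Mitochondrial respiration gave 1 higher gene among 19 tested of 79 listed (5.26%), with medians of 0.47 and 0.48.

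Genes of differentiated cells were measured too. Of 38 neuronal genes 1 was lower and 2 were higher (7.89%), *dlg4a* and *pcloa* among them. Of 16 muscle genes 2 were lower (12.5%). *dok7*, an adaptor of the neuromuscular junction, was one of these, with 121, 138 and 122 normalized counts in YAPs and 32.4, 40.8 and 73 in YAPd (edgeR, log2 difference −1.38, adjusted p = 0.045, SE 0.34). WT 1–3 had 67.4, 29.4 and 156 and overlapped both mutants.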
